A study of Mus musculus with 36 samples.

Results

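The genes described here are the 4 Id genes, Id1, Id2, Id3 and Id4, and 4 genes of bone morphogenetic protein (BMP) signalling, Bmp4, Smad6, Bambi and Bmpr1a, in mouse embryonic stem cells (mESCs). They were chosen by name, with earlier results of these data known, and they are 8 of the 49671 genes in the count table. All 8 were among the 17702 genes with enough counts to be tested.

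The mESCs, labelled 129m wt, were grown on fibronectin-coated StemBond hydrogels of soft or stiff type, which are polyacrylamide gels with tethered matrix protein, or on tissue culture plastic (TCP). Each hydrogel carried cells in serum, with or without LIF and with or without PD03, for 48 h, and in serum + LIF for 24 h as well, while plastic carried cells in serum + LIF for 48 h. LIF acts through STAT3 to keep mESCs self-renewing, and PD03 inhibits MEK, the kinase upstream of ERK. There were 36 libraries in 11 groups, with 6 for serum + PD03 on soft substrates and 3 in every other group. Every group contained serum, itself a known source of BMP activity, and no group had a BMP ligand or a BMP inhibitor added. The study's methods name several mESC lines without saying which one these libraries came from.

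BMP ligands bind paired type I and type II receptors, which phosphorylate Smad1, Smad5 and Smad9. These enter the nucleus with Smad4 and switch on target genes, of which the Id genes are the best known. Id proteins carry a helix-loop-helix domain without a DNA-binding region and hold E proteins away from the promoters of differentiation genes. In mESCs, BMP4 together with LIF is known to support self-renewal through Id genes. Smad6 and Bambi are inhibitors of the pathway that BMP signalling itself induces, so they are often read as targets as well.

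The libraries held between 10405696 and 26635239 counts. The 8 stem cell markers were present in every library, the lowest value being 96.0 CPM (counts scaled to a common library total) for Utf1. All 7 genes taken as a check of PD03 (Spry2, Spry4, Dusp4, Dusp6, Etv4, Etv5 and Egr1) fell with it. Their summed level was 738 to 908 CPM in the 21 libraries without PD03 and 274 to 322 CPM in the 15 with it. Most of the sum with PD03 came from Etv5, whose median was 388 CPM without and 264 CPM with PD03. The plastic libraries stood apart in their share of mitochondrial counts, 2.27% to 2.92% against 0.574% to 1.75% in the hydrogel libraries. The sequencing pools given in the sample descriptions divide the groups unevenly. The first pool held every 24 h library and the plastic ones, the second nearly all stiff libraries at 48 h, and the third nearly all soft libraries at 48 h.

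Levels between genes can be compared only per length, as CPM per kilobase of exon. Among the 8 genes in cells without PD03, Id1 was the most abundant on this scale, with group means of 49.5 to 101 CPM per kb. Id4 was the least abundant, at 0.739 to 1.32 CPM per kb. In the 4 groups with PD03, Id2 was the most abundant of the Id genes, at 28.4 to 30.9 CPM per kb, while Id1 lay at 7.40 to 9.77 and Id3 at 6.24 to 8.52 CPM per kb. The single receptor of the list, Bmpr1a, ranged from 14.3 to 20.2 CPM per kb over all 11 groups. All values below are in CPM, which compares a gene only with itself.

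**Figure D1:**
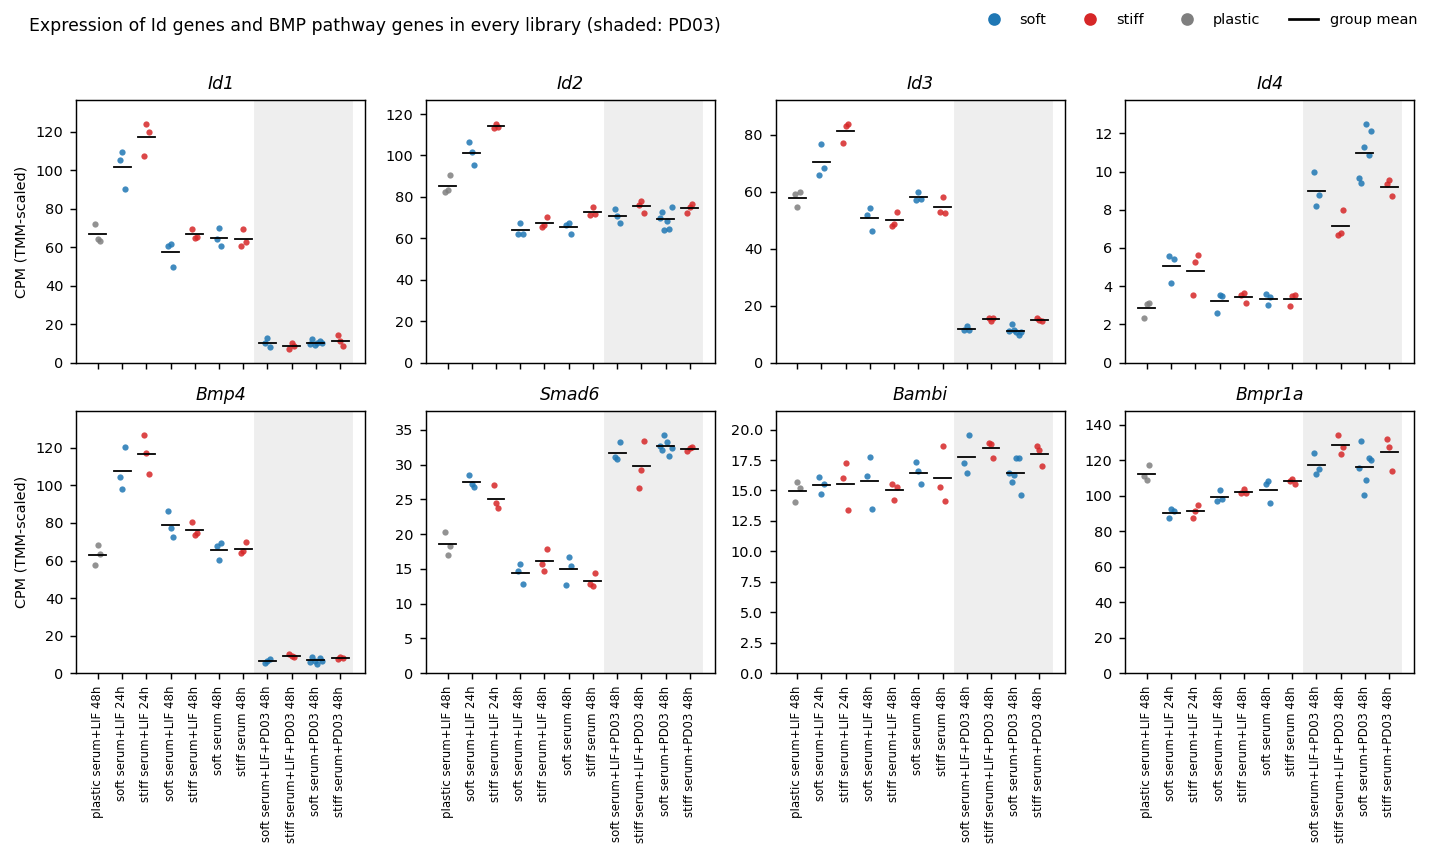
CPM (vertical axis, from 0, TMM-scaled) of each of the 8 genes in all 36 libraries, with 1 point per library, a black line at each group mean and the groups with PD03 shaded. Id1, Id3 and Bmp4 lie far lower in every PD03 library, and Id4 and Smad6 lie higher there than in every other 48 h library. Id2, Bambi and Bmpr1a differ little between the 48 h hydrogel libraries with and without PD03.

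The first question was what MEK inhibition does to these genes, and it was followed by the largest differences seen for them. Averaged over the 4 comparisons of PD03 with no PD03 at 48 h (soft or stiff, with or without LIF), Bmp4 was 9.39-fold lower, Id1 6.29-fold lower and Id3 4.04-fold lower with PD03. In the same average Id4 was 2.72-fold and Smad6 2.15-fold higher. Id2, Bambi and Bmpr1a differed by less than 1.2-fold. All 8 genes passed the edgeR threshold in the average, 5 higher and 3 lower, where 74.3% of all genes passed it, 37.2% higher and 37.1% lower. A call alone is thus close to the background, and the size of the change is the more informative measure. Of all genes, 2.51% passed the threshold with a log2 change of -2 or below, as Bmp4, Id1 and Id3 did. Another 11.6% passed it with a change of 1 or above, as Id4 and Smad6 did. The cut-offs are unequal and lie close to Id3 (-2.02) and Smad6 (1.11), so these shares are a description and not a test. In single comparisons on stiff substrates Id3 fell short of -2, at -1.71 with LIF and -1.86 without it. Smad6 fell short of 1 there with LIF, at 0.88.

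Bmp4 encodes the BMP ligand with the highest average level per kilobase of those listed here (ENSMUSG00000021835, GRCm38 chromosome 14, 46383520 to 46390669, minus strand). In serum + LIF at 48 h, Bmp4 measured 72.5, 77.2 and 86.6 CPM in the soft libraries and 73.5, 74.8 and 80.6 CPM in the stiff libraries. With PD03 added, it measured 5.63, 6.53 and 7.79 CPM on soft and 8.57, 8.95 and 10.3 CPM on stiff substrates. No library with PD03 came near any library without it, since the lowest of the 21 without PD03 was 57.5 CPM and the highest of the 15 with it was 10.3 CPM. In serum without LIF, Bmp4 measured 60.1, 67.7 and 69.5 CPM on soft and 63.8, 65.0 and 69.8 CPM on stiff substrates. With PD03 in serum, the 6 soft libraries had a lowest value of 4.89, a median of 6.74 and a highest of 8.52 CPM, and the stiff libraries held 7.82, 7.90 and 8.51 CPM. The log2 fold change averaged -3.23 ± 0.05 (SE of the fit), with an edgeR adjusted p of 1.70e-45. The 4 single comparisons ranged from -3.57 on soft substrates with LIF to -3.02 on stiff substrates without LIF.

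Id1 is a direct BMP target in many cell types (ENSMUSG00000042745, GRCm38 chromosome 2, 152736251 to 152737410, plus strand). Its level in serum + LIF at 48 h was 49.6, 60.8 and 61.8 CPM on soft and 64.8, 65.6 and 69.7 CPM on stiff substrates. With PD03 it was 8.12, 10.1 and 12.6 CPM on soft and 6.95, 8.57 and 10.2 CPM on stiff substrates. As for Bmp4, the libraries with and without PD03 did not overlap in either medium. In serum, Id1 measured 60.6, 64.2 and 70.1 CPM on soft and 60.6, 62.8 and 69.3 CPM on stiff substrates. In serum + PD03 it ranged from 9.11 to 12.01 CPM with a median of 10.01 in the 6 soft libraries, and it measured 8.54, 11.05 and 14.4 CPM in the stiff libraries. The average log2 fold change was -2.65 ± 0.06 (edgeR adjusted p = 6.85e-40).

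Id3 (ENSMUSG00000007872, GRCm38 chromosome 4, 136143497 to 136145755, plus strand) fell less than Id1. It measured 46.2, 51.8 and 54.3 CPM on soft and 48.1, 48.8 and 53.0 CPM on stiff substrates in serum + LIF at 48 h, and 11.3, 11.3 and 13.0 CPM against 14.5, 15.5 and 15.8 CPM once PD03 was present. In serum it measured 57.0, 57.3 and 59.8 CPM on soft and 52.4, 52.8 and 58.3 CPM on stiff substrates. With PD03, the soft libraries lay below all stiff libraries in both media. In serum + PD03, the 6 soft libraries ranged from 9.83 to 13.5 CPM with a median of 10.9, and the stiff libraries measured 14.5, 14.9 and 15.5 CPM. The average log2 fold change with PD03 was -2.02 ± 0.04 (edgeR adjusted p = 2.77e-42), ranging from -2.39 on soft substrates without LIF to -1.71 on stiff substrates with LIF.

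Id4 went the other way (ENSMUSG00000021379, GRCm38 chromosome 13, 48261228 to 48266026, plus strand). It is the least abundant member, with 41 to 239 counts per library. In serum + LIF at 48 h it measured 2.57, 3.47 and 3.56 CPM on soft and 3.12, 3.56 and 3.62 CPM on stiff substrates. Adding PD03 brought it to 8.22, 8.77 and 9.95 CPM on soft and 6.66, 6.78 and 7.96 CPM on stiff substrates. In serum it measured 3.03, 3.42 and 3.60 CPM on soft and 2.95, 3.47 and 3.52 CPM on stiff substrates. With PD03 in serum, the 6 soft libraries ranged from 9.39 to 12.5 CPM (median 11.1), and the stiff libraries measured 8.74, 9.35 and 9.53 CPM. Every PD03 library lay above every library without PD03, 24 h and plastic included. The average log2 fold change was 1.44 ± 0.08 (edgeR adjusted p = 2.44e-22).

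Smad6, an inhibitory Smad (ENSMUSG00000036867, GRCm38 chromosome 9, 63953076 to 64022059, minus strand), rose as well. Its values in serum + LIF at 48 h were 12.9, 14.7 and 15.7 CPM on soft and 14.7, 15.7 and 17.9 CPM on stiff substrates. After addition of PD03 they were 30.7, 31.0 and 33.2 CPM on soft and 26.6, 29.3 and 33.4 CPM on stiff substrates. In serum, Smad6 measured 12.7, 15.4 and 16.7 CPM on soft and 12.5, 12.8 and 14.4 CPM on stiff substrates. All 15 PD03 libraries were above every other library at 48 h, although the 24 h libraries without PD03 reached 28.5 CPM. In serum + PD03 the 6 soft libraries ranged from 31.3 to 34.3 CPM (median 32.5) and the stiff libraries measured 31.9, 32.4 and 32.5 CPM. The average log2 fold change was 1.11 ± 0.04 (edgeR adjusted p = 5.43e-28). Bmp4 and Smad6, the ligand and the inhibitor, thus moved in opposite directions, as did Id1 and Id4.

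Id2 (ENSMUSG00000020644, GRCm38 chromosome 12, 25093799 to 25097140, minus strand) behaved unlike the other Id genes. Its 15 libraries with PD03 ranged from 64.2 to 78.0 CPM and its 12 hydrogel libraries at 48 h without PD03 from 61.9 to 75.3 CPM, so the groups overlapped widely. The average log2 fold change was 0.11 ± 0.03 (edgeR adjusted p = 7.49e-04). In the single comparisons Id2 passed the threshold on soft (0.15 ± 0.06) and on stiff substrates (0.16 ± 0.06) with LIF and not without it. The call on soft substrates with LIF was lost without either library 1 or library 2 with PD03 and without either library 1 or library 3 in serum + LIF (adjusted p = 0.0949 to 0.180). The call on stiff substrates with LIF was lost without library 1 in serum + LIF (adjusted p = 0.0654) or without library 2 with PD03 (adjusted p = 0.0714).

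Bmpr1a, a type I BMP receptor (ENSMUSG00000021796, GRCm38 chromosome 14, 34410734 to 34503341, minus strand), was 1.18-fold higher with PD03. It ranged from 101 to 134 CPM over the 15 libraries with PD03 and from 95.7 to 109.5 CPM over the 12 hydrogel libraries at 48 h without it, a log2 difference of 0.23 ± 0.03 (edgeR adjusted p = 1.17e-09). It passed the threshold in all 4 single comparisons, although on soft substrates without LIF the call was lost without serum library 3 (log2 change 0.10, adjusted p = 0.157). Bambi, a decoy receptor without a kinase domain (ENSMUSG00000024232), measured 14.6 to 19.6 CPM with PD03 and 13.5 to 18.7 CPM without it at 48 h on hydrogels. Its average change was 0.16 ± 0.05 (edgeR adjusted p = 0.00379), and of the 4 single comparisons only that on stiff substrates with LIF passed the threshold (0.30 ± 0.10). Without serum library 2, Bambi also passed on stiff substrates without LIF (0.29, adjusted p = 0.0212).

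**Figure D2:**
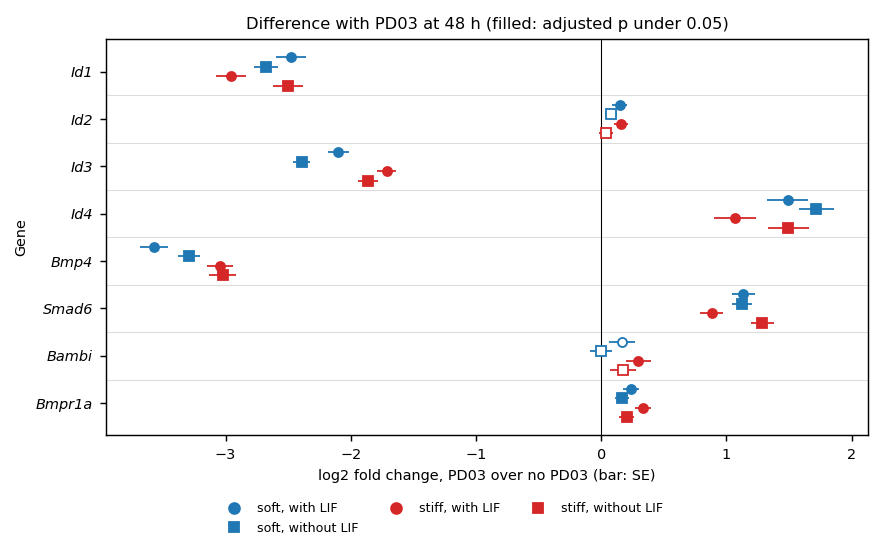
Log2 fold change of PD03 over no PD03 at 48 h (horizontal axis) for each of the 8 genes in 4 comparisons, with bars for the SE of the fit and filled symbols for an adjusted p under 0.05. Bmp4, Id1 and Id3 lie between -3.57 and -1.71, Id4 and Smad6 between 0.88 and 1.72, and the other genes between -0.01 and 0.33.

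In the single comparisons, 7 of the 8 genes passed the threshold on soft substrates with LIF (54.4% of all genes did), 6 on soft without LIF (57.5%), 8 on stiff with LIF (56.2%) and 6 on stiff without LIF (55.8%). The PD03 comparison on soft substrates with LIF lay wholly within the third pool, and that on stiff substrates without LIF wholly within the second. When the pool was added to the model, over 45 possible assignments of columns to pools, all 8 average PD03 calls held, and the average change was between -3.27 and -3.19 for Bmp4, -2.68 and -2.63 for Id1, -2.04 and -1.99 for Id3, 1.40 and 1.47 for Id4, and 1.09 and 1.13 for Smad6. In the single comparisons, some assignments lost the calls of Bmpr1a on soft substrates without LIF and of Id2 and Bambi on stiff substrates with LIF. The libraries are bulk samples, in which fewer cells of a type and less RNA per cell cannot be told apart.

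Upstream sequences are shown for 3 of the 5 members with marked changes, Bmp4, Id4 and Smad6, so that these can be read beside the promoter. Each sequence is the 250 bases before the RefSeq start (build GRCm38.p6), read 5′ to 3′ on the strand of the gene. Capitals mark GGCGCC and GTCTG, motifs bound by BMP-activated Smads, and CCGGAA, the core bound by ETS factors, several of which are activated by ERK. They also mark CANNTG, the general E-box, of which E proteins bind only some forms. Matches on either strand are marked.
Bmp4 (chr14:46390670-46390919, minus strand): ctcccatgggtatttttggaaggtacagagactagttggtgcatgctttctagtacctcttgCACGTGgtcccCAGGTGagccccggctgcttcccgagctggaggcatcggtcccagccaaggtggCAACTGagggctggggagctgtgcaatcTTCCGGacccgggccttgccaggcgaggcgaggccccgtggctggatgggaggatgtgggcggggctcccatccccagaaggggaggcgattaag
Id4 (chr13:48260866-48261115, plus strand): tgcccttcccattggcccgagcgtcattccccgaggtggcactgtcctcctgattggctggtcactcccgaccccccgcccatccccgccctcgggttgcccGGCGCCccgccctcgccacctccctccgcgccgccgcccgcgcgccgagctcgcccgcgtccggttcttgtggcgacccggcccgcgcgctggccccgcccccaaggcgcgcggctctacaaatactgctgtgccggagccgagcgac
Smad6 (chr9:64022060-64022309, minus strand): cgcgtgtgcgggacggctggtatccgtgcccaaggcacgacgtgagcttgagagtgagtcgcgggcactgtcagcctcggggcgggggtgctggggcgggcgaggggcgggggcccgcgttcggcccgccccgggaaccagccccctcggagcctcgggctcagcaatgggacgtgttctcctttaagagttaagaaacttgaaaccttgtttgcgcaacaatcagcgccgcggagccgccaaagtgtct
The Bmp4 window held 1 CCGGAA match, on the reverse strand with its first base 95 bases before the start, and 3 CANNTG matches at 188, 177 and 123 bases. The Id4 window held 1 GGCGCC match at 148 bases, and the Smad6 window held none of the 4 motifs marked. Of 32851 RefSeq promoter windows of the same length, 9.59% held GGCGCC, 42.2% GTCTG, 12% CCGGAA and 66.2% CANNTG. The GC-rich GGGCGG element, present in 32.7% of the windows, occurred in each matched window of these genes. It occurred 5 times upstream of Id4, where 1 match runs on from the GGCGCC, and 4 times each upstream of Smad6 and Bmpr1a. The Id3 window held 2 matches, and those of Bmp4 and Id2 held 1 each. RefSeq windows were matched for 6 of the 8 genes, and those of Id2, Id3 and Bmpr1a overlap annotated exons and are not shown. In those windows, Id2 held 1 GGCGCC match at 231 bases, Bmpr1a 1 at 198 bases and Id3 2 GTCTG matches, at 167 and 68 bases. A match is a description of letters and not a bound site.

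The other genes of the pathway were taken from lists drawn up with earlier results of these data known. Their counts describe these lists and are not an independent check of the members. Of 52 tested genes of 59 listed, 29 were higher and 15 lower with PD03 in the average of 4 comparisons, where 37.2% of all genes were higher and 37.1% lower. The share called in these lists is thus to be read against 74.3% of all genes, which the inhibitors, with 13 of 17, were close to. The 52 genes had a median log2 change of 0.42 against 0.00 for all genes. The 9 other BMP target genes were split, 6 higher and 3 lower. Gata2, a transcription factor of haematopoietic and trophoblast cells, was at 7.39 to 17.5 CPM without PD03 and 77.1 to 138 CPM with it, a log2 change of 3.35 ± 0.05 (edgeR adjusted p = 2.24e-46). Gata3 (2.94 ± 0.04), the homeobox genes Msx2 (2.61 ± 0.05) and Dlx3 (2.30 ± 0.08) rose likewise. Msx1, a homeobox gene related to Msx2, fell by 2.11 ± 0.13 on the log2 scale, from 3.29 to 5.98 CPM without PD03 to 0.546 to 1.64 CPM with it (edgeR adjusted p = 7.79e-21). Dusp9, a phosphatase that acts on ERK, fell from 119.9 to 192.7 CPM without PD03 to 73.2 to 119.1 CPM with it, a log2 change of -0.65 ± 0.04 (edgeR adjusted p = 1.77e-21). Hey1 (-0.60 ± 0.10) also fell, and Dlx5 (0.69 ± 0.16) and Atoh8 (1.06 ± 0.24) rose.

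Ligands and receptors other than the members also held genes that moved in either direction. Of 8 tested ligands of 13 listed, 5 were higher and 1 was lower with PD03. Bmp7 rose from 2.35 to 5.03 CPM to 7.72 to 12.9 CPM, a log2 change of 1.42 ± 0.09 (edgeR adjusted p = 5.60e-19), and Bmp6 fell by 1.33 ± 0.13 on the log2 scale (adjusted p = 2.18e-13). Of 11 receptors and co-receptors, 7 were higher and 3 lower, with the co-receptors Rgma (2.32 ± 0.06) and Eng (1.18 ± 0.03) the most changed of those that rose. Of the 4 transducing Smads, Smad9 was higher (0.70 ± 0.15), and Smad1 (-0.14 ± 0.04) and Smad4 were lower.

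Inhibitors were split as well, with 8 of 17 tested genes higher and 5 lower. Smad7, the other inhibitory Smad, rose by 0.89 ± 0.04 on the log2 scale, from 40.4 to 75.6 CPM without PD03 to 114 to 137 CPM with it, the same direction as Smad6 (edgeR adjusted p = 1.53e-27). Skil, a co-repressor of Smads, fell by 1.81 ± 0.02, and Grem1, a secreted BMP antagonist of low level here, fell by 2.79 ± 0.21. Noggin (Nog), another secreted antagonist, rose by 1.65 ± 0.14, though at no more than 5.75 CPM in any library. Of the 3 E proteins, the partners of Id proteins, Tcf12 (0.55 ± 0.03) and Tcf4 were higher and Tcf3 (-0.29 ± 0.03) was lower, each past the threshold.

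**Figure D3:**
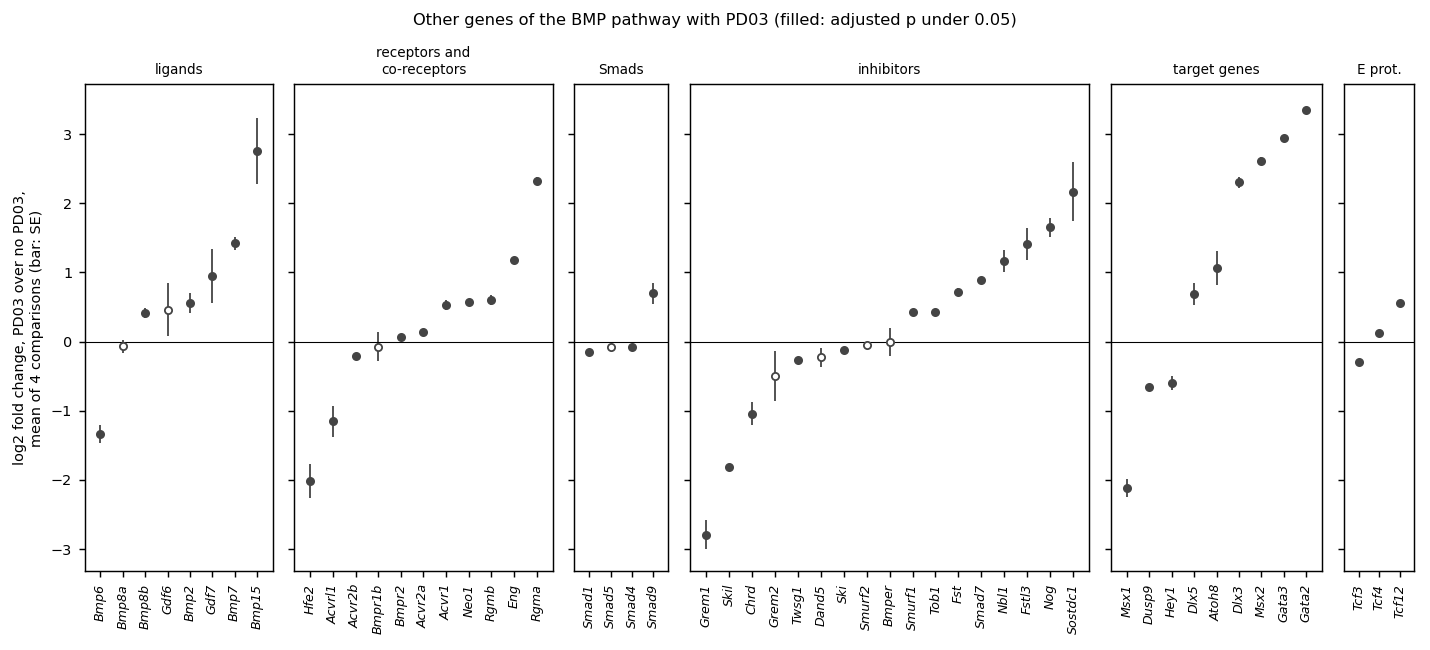
Log2 fold change of PD03 over no PD03 (vertical axis, mean of 4 comparisons, bars for the SE) for the 52 tested other genes of the BMP pathway, grouped by role and ordered by value, with filled points for an adjusted p under 0.05. Each of the 6 groups holds genes on both sides of 0, from Grem1 at -2.79 to Gata2 at 3.35.

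Markers of cell types were compared in the same average. Their counts are to be read against the 74.3% of all genes called there, 37.2% higher and 37.1% lower. Trophectoderm markers were higher for 5 of 6 genes and lower for 1, with a summed level of 126 to 355 CPM without and 404 to 866 CPM with PD03. Most of that sum came from Krt8, Krt18 and Tfap2c, while the defining markers were low, Cdx2 at 1.31 to 10.53 CPM and Elf5 at no more than 0.861 CPM with 3 libraries at 0. Stem cell markers were higher for 6 of 8 genes and lower for 1, with a sum of 3665 to 4450 CPM without and 4723 to 5445 CPM with PD03. Primitive endoderm markers were higher for 2 and lower for 4 of 7, with sums of 46.3 to 70.2 CPM and 83.1 to 141 CPM. Streak and mesoderm markers were lower for 3 and higher for 1 of 5 tested (14.5 to 24.6 CPM and 7.57 to 12.5 CPM), neural markers lower for 4 and higher for 1 of 5 (73.4 to 109.5 CPM and 83.7 to 103 CPM) and fibroblast markers lower for 2 and higher for 3 of 5 (21.7 to 78.2 CPM and 27.4 to 91.1 CPM). In the neural list, the median of Nes rose from 36.7 to 77.5 CPM with PD03, while that of Pax6 fell from 31.8 to 3.87 CPM. The part of any other cell types in the changes of the 8 genes was not tested.

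The second question was whether substrate stiffness changes the Id and BMP genes. In cells without PD03 none of the 8 genes passed the threshold between soft and stiff substrates at either time. With PD03, Id3 was lower on soft substrates in both media, and Bmp4 in serum + LIF + PD03. The differences were modest, at most 1.4-fold.

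At 24 h, when both substrates were of the same pool, 0 of 8 genes passed the edgeR threshold (3.55% of all genes did). At an unadjusted p under 0.05 there were 3, Id1, Id2 and Id3, and DESeq2 called 0. Id1 measured 90.2, 105 and 109 CPM on soft and 107, 120 and 124 CPM on stiff substrates. Id2 measured 95.2, 102 and 107 CPM on soft and 113, 114 and 115 CPM on stiff substrates, a log2 difference of -0.18 ± 0.06 (edgeR adjusted p = 0.0631). For Id3 the values were 65.9, 68.3 and 76.7 CPM on soft and 77.2, 83.1 and 83.8 CPM on stiff substrates, and the log2 difference was -0.21 ± 0.07 (adjusted p = 0.0645). The soft libraries of Id2 and Id3 were all below the stiff ones. Without soft library 2 the adjusted p of Id3 was 0.0341, with a log2 difference of -0.27.

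After 48 h, 0 of 8 genes passed the threshold in serum + LIF (0.78% of all genes did) and 0 of 8 in serum (4.85%). By DESeq2 there were 0 in each, and at an unadjusted p under 0.05 there was 1 in each, Id1 in serum + LIF and Id2 in serum. The log2 differences of the 8 genes lay between -0.21 and 0.07 in serum + LIF, and between -0.15 and 0.18 in serum, with SEs of 0.06 to 0.19. At 48 h the 2 substrates were mostly of different pools, and substrate and pool could be told apart only through the few libraries of a group that shared a pool with the other substrate.

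In serum + PD03, Id3 was the 1 gene of 8 past the threshold (5.55% of all genes were, 3.42% lower on soft substrates). Its soft libraries, at 9.83 to 13.5 CPM, all lay below its stiff libraries at 14.5 to 15.5 CPM, a log2 difference of -0.44 ± 0.08 (edgeR adjusted p = 1.11e-04). In serum + LIF + PD03, 2 genes passed, both lower on soft substrates, where 7.61% of all genes did and 4.82% were lower. The mean of Id3 was 11.9 ± 0.96 CPM on soft substrates and 15.3 ± 0.68 CPM on stiff ones (± SD, n = 3 each), a log2 difference of -0.36 ± 0.09 (adjusted p = 0.00397). Bmp4 measured 6.65 ± 1.08 and 9.28 ± 0.93 CPM (n = 3 each), a log2 difference of -0.48 ± 0.13 (adjusted p = 0.0153). The Bmp4 call was lost without stiff library 1 (adjusted p = 0.108), without soft library 1 (0.133) or without soft library 2 (0.0570). With pool as a term, Id3 in serum + PD03 remained past the threshold in 33 of 45 assignments, with log2 differences of -0.55 to -0.30. In serum + LIF + PD03 both genes did so in 9 of 45 assignments, Id3 with differences of -0.52 to -0.16 and Bmp4 of -0.88 to -0.09.

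The dependence of the stiffness difference on PD03 was tested as an interaction. Without LIF, Id3 alone of the 8 genes passed the threshold, with an interaction of -0.53 ± 0.10 on the log2 scale (edgeR adjusted p = 0.00346), where 0.797% of all genes passed. Id3 was 0.09 ± 0.07 higher on soft substrates in serum on the log2 scale, and the difference in serum + PD03 was -0.44. The call held under all 45 pool assignments (-0.59 to -0.48) and without any single library. With LIF, the interactions of Bmp4 (-0.53 ± 0.16), Id3 (-0.39 ± 0.11) and Id1 (0.48 ± 0.17) had an unadjusted p under 0.05, but 0 of 8 genes had an adjusted p under 0.05 by edgeR, where 1.07% of all genes had one (adjusted p = 0.101 for Bmp4 and 0.0845 for Id3). DESeq2 called 1 gene, Bmp4. Without soft library 3 in serum + LIF both passed, Bmp4 at -0.61 (adjusted p = 0.0323) and Id3 at -0.47 (adjusted p = 0.0198). Leaving out soft library 2 with PD03 brought Id3 (-0.48, adjusted p = 0.0435) past the threshold and leaving out soft library 3 with PD03 brought Bmp4 (-0.67, adjusted p = 0.0311).

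**Figure D4:**
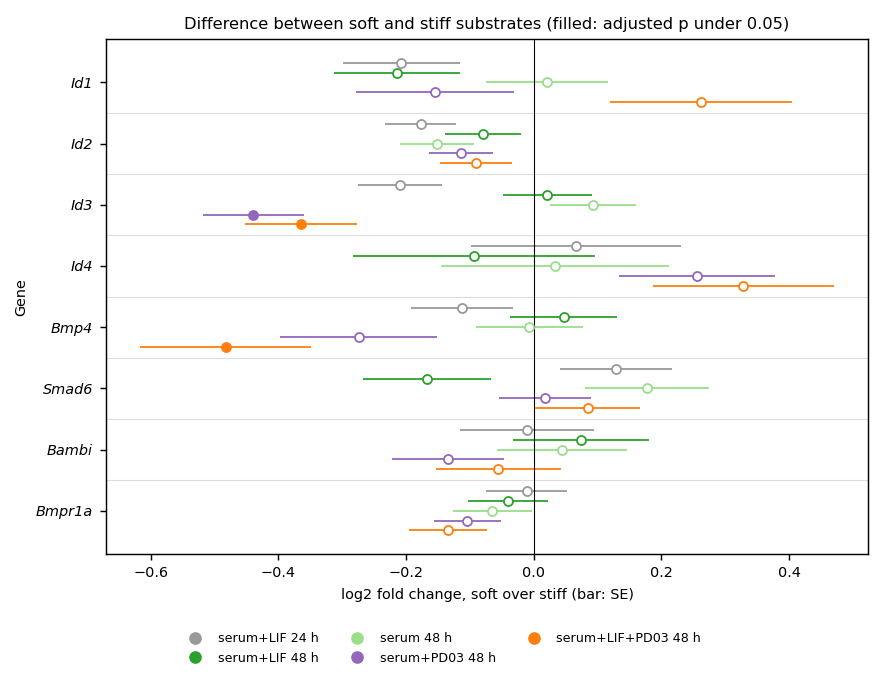
Log2 fold change of soft over stiff substrates (horizontal axis) for each of the 8 genes in 5 combinations of medium and time, with bars for the SE and filled points for an adjusted p under 0.05. The filled points are Id3 in both media with PD03 and Bmp4 in serum + LIF + PD03, and every Id2 point lies below 0.

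Averaged over the 5 combinations of medium and time, 3 of 8 genes were lower on soft substrates, where 17.1% of all genes passed the threshold and 8.74% were lower. These were Id3 (-0.18 ± 0.03, edgeR adjusted p = 5.01e-05), Id2 (-0.12 ± 0.02, adjusted p = 2.20e-04) and Bmp4 (-0.17 ± 0.05, adjusted p = 0.00770). Id2 was below its stiff level in 5 of 5 combinations, by 0.08 to 0.18 on the log2 scale, and Id3 in 3 of 5. Bmpr1a was also lower in 5 of 5, with an average of -0.07 ± 0.03 that did not pass (adjusted p = 0.0649). Leaving out stiff library 3 or soft library 2 in serum + PD03, soft library 1 in serum + LIF + PD03 or soft library 2 in serum + LIF at 48 h took Bmpr1a past the threshold (adjusted p = 0.0298 to 0.0493). With pool as a term the average of Id2 was between -0.24 and 0.00, with a call in 11 of 45 assignments, that of Id3 between -0.30 and -0.02, with a call in 6, and that of Bmp4 between -0.46 and 0.14, with a call in 3.

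In this average 17.1% of all genes passed the threshold and 8.74% were lower on soft substrates. Of the 52 other genes of the pathway, 2 were higher and 12 lower. They included the ligand Bmp8b (-0.92 ± 0.07), the antagonist Nog (-0.82 ± 0.13), the targets Dlx3 (-0.58 ± 0.07) and Gata3 (-0.35 ± 0.04) and the type II receptor Bmpr2 (-0.18 ± 0.03). The trophectoderm markers, 3 of 6 of them lower on soft substrates and 1 higher, had a mean summed level in serum of 142.7 CPM on soft substrates against 176.6 CPM on stiff ones. In serum + LIF + PD03 the sums were 464 and 842.5 CPM. Fibroblast markers were lower on soft substrates for 3 of 5 genes, and stem cell markers higher for 7 of 8. The part of these differences in those of Id3, Id2 and Bmp4 was not tested.

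Against plastic, in serum + LIF at 48 h, the hydrogels had more Bmp4 and less Id2. Id2 measured 82.2, 83.2 and 90.5 CPM on plastic, above every soft (61.9, 62.1 and 67.6 CPM) and stiff library (65.5, 66.4 and 70.4 CPM). Its log2 difference was -0.42 ± 0.06 on soft (edgeR adjusted p = 4.33e-07) and -0.34 ± 0.06 on stiff substrates (adjusted p = 5.02e-05). Bmp4 measured 57.5, 63.5 and 68.1 CPM on plastic, below every hydrogel library of the same medium and time. The difference was 0.32 ± 0.08 on soft (adjusted p = 0.00636) and 0.28 ± 0.08 on stiff substrates (adjusted p = 0.0410). Smad6, at 17.1, 18.2 and 20.3 CPM on plastic, was lower on soft substrates by 0.36 ± 0.10 (adjusted p = 0.00803). In all, 3 of 8 genes passed the threshold on soft substrates (11.8% of all genes did) and 2 of 8 on stiff substrates (5.54%).

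These calls rested on few libraries, except that of Id2. Without plastic library 1, neither Bmp4 (0.27, adjusted p = 0.0576) nor Smad6 (-0.27, adjusted p = 0.124) passed on soft substrates. Nor did Bmp4 without soft library 1 (adjusted p = 0.0642) or Smad6 without soft library 3 (adjusted p = 0.106). On stiff substrates Bmp4 still passed with plastic library 2 left out, and had an adjusted p of 0.0676 to 0.252 without any other single library of the 2 groups. Id3 was not called (-0.19 on soft, -0.21 on stiff substrates) but passed without soft library 2 or without plastic library 2 (adjusted p = 0.0487 in each case), and by DESeq2 on stiff substrates (adjusted p = 0.0497). The plastic libraries came from another pool than most hydrogel libraries at 48 h and had the highest mitochondrial shares. They also had more summed trophectoderm markers, 253 CPM against 169.5 CPM for stiff and 143 CPM for soft, more fibroblast markers, 74.4 CPM against 36.4 and 27.5 CPM, and more neural markers, 104.4 CPM against 80.6 and 85.6 CPM. In each of these lists 2 genes passed the threshold as lower on each hydrogel, and their part in the differences of Id2, Bmp4 and Smad6 was not tested. With pool as a term, Id2 on stiff substrates was called in 30 of 45 assignments and on soft substrates in 18, and Bmp4 in 0 and 1.

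LIF was followed by few called differences in these genes. In the 4 single comparisons with and without LIF, 0 of 8 genes passed the edgeR threshold, where 0.0169% and 1.41% of all genes passed on soft and stiff substrates without PD03, and 0.107% and 0.514% with it. DESeq2 called 0 in each. At an unadjusted p under 0.05 there were 2 without PD03 on soft substrates (Id3 and Bmp4), 2 on stiff substrates (Bmp4 and Smad6), 1 with PD03 on soft (Id4) and 2 on stiff substrates (Id1 and Id4). Socs3, a direct LIF target, was 0.76 ± 0.07 higher with LIF on the log2 scale on stiff substrates without PD03. On soft substrates without PD03 its mean was 86.1 CPM with and 65.3 CPM without LIF. With PD03 the means were 62.6 and 59.3 CPM on soft and 55.4 and 43.5 CPM on stiff substrates.

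Averaged over soft and stiff substrates without PD03, Bmp4 was 0.23 ± 0.06 higher with LIF on the log2 scale (edgeR adjusted p = 0.0285), the 1 call among the 8 genes, where 1.12% of all genes passed. The group means of Bmp4 were 78.8 ± 7.17 CPM with and 65.8 ± 5.0 CPM without LIF on soft substrates, and 76.3 ± 3.81 and 66.2 ± 3.19 CPM on stiff substrates (± SD, n = 3 each). The call was lost without any 1 of 9 of the 12 libraries (adjusted p = 0.0535 to 0.153). It held without library 3 of stiff serum, of soft serum or of soft serum + LIF. With PD03 the average gave 0 calls (1.25% of all genes), 1 unadjusted p under 0.05, for Id4 (-0.33 ± 0.09, adjusted p = 0.0638), and 1 call by DESeq2 (adjusted p = 0.0323). Without soft library 2 in serum + PD03 the adjusted p of Id4 was 0.0490. The difference between the LIF effects with and without PD03 gave 0 calls by edgeR (0.881% of all genes) and by DESeq2, with an unadjusted p under 0.05 for 3 genes, Id3, Id4 and Smad6. The interaction of stiffness with LIF also gave 0 calls by both tools (0.0847% of all genes), with an unadjusted p under 0.05 for 1 gene, Smad6.

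The last question was time. Between 24 h and 48 h in serum + LIF, the 4 Id genes, Bmp4 and Smad6 all fell on both hydrogels. The log2 changes of Bambi were 0.04 ± 0.11 on soft and -0.05 ± 0.10 on stiff substrates, and Bmpr1a did not fall on either. On soft substrates 6 of 8 genes passed the threshold and all were lower at 48 h, where 11.4% of all genes were called lower (24.4% in either direction). On stiff substrates 7 passed, 6 lower and Bmpr1a higher, where 13% of all genes were called lower (25.6% in either direction). The median log2 change of the 8 genes was -0.57 on soft and -0.62 on stiff substrates, against -0.03 and -0.01 for all genes.

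Id1 fell from 90.2, 105 and 109 CPM to 49.6, 60.8 and 61.8 CPM on soft substrates, and from 107, 120 and 124 CPM to 64.8, 65.6 and 69.7 CPM on stiff substrates. The log2 changes of Id1 were -0.82 ± 0.10 (edgeR adjusted p = 5.25e-09) and -0.81 ± 0.09 (adjusted p = 1.93e-09). The groups did not overlap on either substrate. Bmp4 fell from 97.9, 105 and 121 CPM to 72.5, 77.2 and 86.6 CPM on soft (-0.45 ± 0.08, adjusted p = 3.11e-05) and from 106, 117 and 127 CPM to 73.5, 74.8 and 80.6 CPM on stiff substrates (-0.61 ± 0.08, adjusted p = 6.12e-08). Smad6, which rose with PD03, here fell together with Id1 and Bmp4, from 26.7, 27.2 and 28.5 CPM to 12.9, 14.7 and 15.7 CPM on soft substrates (-0.93 ± 0.10, adjusted p = 1.76e-10) and by 0.63 ± 0.09 on stiff substrates (adjusted p = 4.18e-07).

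Id2, which was 1.08-fold higher with PD03, fell by 0.66 ± 0.06 on soft (edgeR adjusted p = 3.01e-12) and by 0.76 ± 0.06 on stiff substrates (adjusted p = 5.34e-15), from 101 ± 5.69 to 63.9 ± 3.23 CPM and from 114 ± 0.92 to 67.4 ± 2.63 CPM (mean ± SD, n = 3 each). Id3 fell by 0.47 ± 0.07 on soft (adjusted p = 6.51e-07) and by 0.70 ± 0.07 on stiff substrates (adjusted p = 1.19e-11). Id4 fell by 0.66 ± 0.18 (adjusted p = 0.00499) and 0.50 ± 0.17 (adjusted p = 0.0255), and these calls of a gene with few counts were less firm. The call on soft substrates was lost without 48 h library 1 (adjusted p = 0.0566), and that on stiff substrates without 24 h library 2 (0.0958), 24 h library 3 (0.172) or 48 h library 3 (0.130). Bmpr1a was 0.16 ± 0.06 higher at 48 h on stiff substrates (adjusted p = 0.0496), a call lost without 5 of the 6 libraries (adjusted p = 0.0858 to 0.176), all but 24 h library 3.

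Markers of other cell types differed between the times as well. Trophectoderm markers were lower at 48 h for 2 of 6 genes on soft and 3 of 6 on stiff substrates. Of all genes, 11.4% and 13% were called lower there. The mean sums of these markers were 209 and 143 CPM at 24 h and 48 h on soft and 335 and 169.5 CPM on stiff substrates. Krt8 (-0.84 on soft, -1.34 on stiff) and Krt18 (-0.85 and -1.15) were lower. Among primitive endoderm markers, Pdgfra was higher on both (1.35 and 0.73), and Dab2 was higher on soft (0.38) and lower on stiff substrates (-0.27). Gata6, Gata4, Sox17, Sox7 and Foxa2 did not pass the threshold on either. Of the streak and mesoderm markers, T (0.99) and Mixl1 (0.90) were higher at 48 h on soft substrates. On stiff substrates Eomes (-0.42) and Kdr (-1.02) were lower. The only neural marker called was Nes, lower on stiff substrates (-0.45). The summed fibroblast markers were at 29.0 and 27.5 CPM on soft and 53.9 and 36.4 CPM on stiff substrates. The part of any other cell types in the fall of the Id genes, Bmp4 and Smad6 was not tested.

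**Figure D5:**
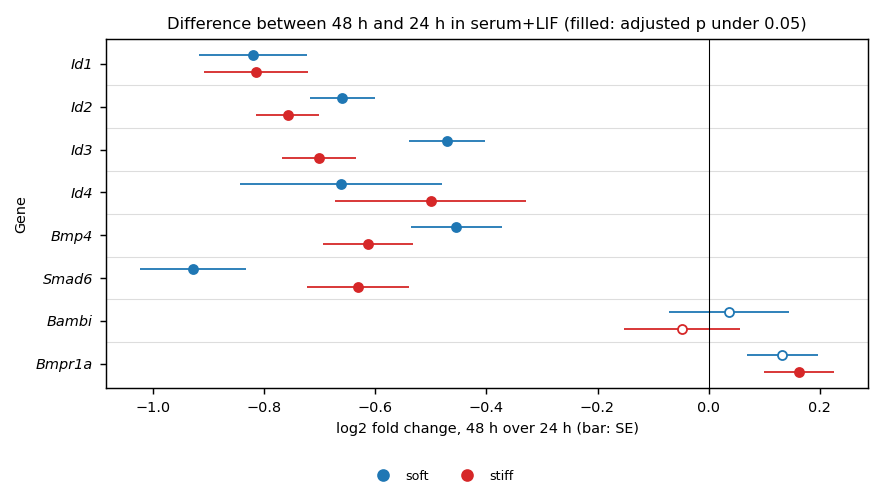
Log2 fold change of 48 h over 24 h in serum + LIF (horizontal axis) for each of the 8 genes on soft and stiff substrates, with bars for the SE and filled points for an adjusted p under 0.05. The Id genes, Bmp4 and Smad6 lie between -0.93 and -0.45, and Bambi and Bmpr1a between -0.05 and 0.16.

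All 24 h libraries came from the first pool. On soft substrates time and pool coincided fully, since all 48 h libraries in serum + LIF were of the third pool. On stiff substrates 1 of the 3 libraries at 48 h was of the first pool. With pool as a term, that 1 library alone links the first pool to the others, so the time comparisons adjusted for pool rest on it. The plastic libraries at 48 h were of the first pool too. They allow a comparison of 48 h with 24 h within 1 pool, although the substrate then differs. Plastic at 48 h was below soft at 24 h for Id1 (-0.61, edgeR adjusted p = 1.96e-06), Id2 (-0.24, 7.91e-04), Id3 (-0.28, 0.00125), Id4 (-0.84, 3.72e-04), Bmp4 (-0.78, 3.05e-10) and Smad6 (-0.56, 3.75e-06). The same 6 genes were below their stiff 24 h level, by 0.42 for Id2 to 0.89 for Bmp4 on the log2 scale. With pool as a term, Id1, Id2, Id3, Bmp4 and Smad6 on stiff substrates were called in 45 of 45 assignments, and Id4 (adjusted p = 0.0744 to 0.343) and Bmpr1a (0.126 to 0.314) in 0. On soft substrates Id2 was called in 45, Smad6 in 41, Id1 in 25, Id3 in 14, Bmp4 in 7 and Id4 in 0. The interaction of stiffness with time gave 0 calls among the 8 genes by edgeR (0.254% of all genes) and by DESeq2, with an unadjusted p under 0.05 for 2 genes, Id3 and Smad6. Among the 52 other pathway genes, 3 were higher and 8 lower at 48 h on soft and 7 higher and 11 lower on stiff substrates. These counts are to be read against 24.4% of all genes called on soft substrates, 11.4% lower. On stiff substrates the shares were 25.6% and 13%. Nog (-1.59 and -1.45), Gata3 (-1.04 on both) and Msx2 (-0.76 and -0.78) were lower on both, and Skil (0.60 and 0.57) was higher.

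Across the 11 groups the order of the levels was similar for Id1, Id3 and Bmp4. All 3 were highest on stiff and then soft substrates at 24 h, intermediate in the 5 groups at 48 h without PD03 and lowest in the 4 groups with PD03. Of the 10 pairs of neighbours in that order, the libraries of 8 overlapped for Id1 and of 6 for Id3 and for Bmp4, so the order is not resolved beyond the 3 tiers for most groups. Smad6 had its 4 highest groups with PD03 and its next highest at 24 h, with 9 of 10 neighbours overlapping, and Id4 had the same 2 upper tiers, with 8 of 10 overlapping. Id2 was highest on stiff and soft substrates at 24 h, then on plastic, each of these separated from the next, and its 8 remaining groups overlapped in turn. Bambi did not separate any neighbours (10 of 10 overlapped), and Bmpr1a 1 pair (9 of 10).

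Pearson's r was taken over the 11 group means of log2 CPM (prior count 2), which share libraries, medium and time. It was 0.99 for Id1 with Id3, for Id1 with Bmp4 and for Id3 with Bmp4, and 0.91 for Id4 with Smad6. For Id2 it was 0.43 with Id1 and 0.42 with Id3. The groups with and without PD03 lay far apart for these genes, and many other genes had a similar order of groups. Of 10475 genes with at least 5 CPM on average, 1335 had an r above 0.9 with Id1, 1277 with Id3, 1406 with Bmp4 and 1418 with Id4, against 462 with Smad6, 253 with Bmpr1a, 27 with Bambi and 24 with Id2. The genes most like Id1 were Ltbp4, Mapk4 and Bcl2l11, those most like Id3 were H13, P3h4 and Gng2, and those most like Bmp4 were Ckap4, Prodh and Sox7. Closest to Id2 was Rin1 (r = 0.99), to Id4 Ak1 (0.99), to Smad6 Rps6kb2 (0.98), to Bmpr1a Acbd5 (0.99) and to Bambi Ten1 (0.95).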

How the data were processed

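The authors sequenced RNA of 36 samples, in libraries made with a NuGen kit per the labels. Per the study's methods, reads were aligned to GRCm38 with STAR 2.5.2a and counted per Ensembl gene with htseq-count. The strand setting was not given in the sources used here, and genes that overlap a member (Gm15217 and Gm15222 at Bmp4, Gm17110 at Bmpr1a, A330033J07Rik at Id4) held at most 0.476 CPM in any library. The authors deposited raw counts, 1 column per library, whose names carry the group and no replicate number, so that library numbers here are only names. Nothing in the labels says that replicates were separate cultures, so p-values measure the spread between these samples, which may be technical. Over 45 pairs of replicates, the chi-square per gene was 2.22 to 13.4, so no pair agreed within sampling noise.

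Counts were analysed with edgeR 4.0.16 in R 4.3.3. Genes were kept by filterByExpr (17702 genes, 99.92% of counts) and scaled by TMM. A quasi-likelihood model with 1 coefficient per group was fitted over all libraries, with Benjamini-Hochberg adjustment over all genes tested and a threshold of 0.05. The SE is the log2 change divided by the square root of F. CPM use TMM-scaled totals, and kilobases are of merged exons in GENCODE M21. On simulated counts for the comparison of PD03 without LIF on stiff substrates (17702 genes, 200 changed), 69% of 1.5-fold and 87% of 2-fold changes were recovered, with 3.7% false among calls. Alternatives were other scaling, no filter, DESeq2 1.42.0, only the groups compared, 1 library left out, and pool as a term. The plastic comparison within the first pool was added after seeing the data. The 8 genes, the gene lists and the comparisons were chosen with earlier results of these data known. The rule named the 8 members in every comparison, other pathway genes from the lists, and the genes most like each member by Pearson's r.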

Additional observations from a re-analysis of the deposited data

Results flagged for a closer look

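The stiffness difference of Id3 depended on PD03 in cells without LIF, by the test of the interaction itself. The interaction was -0.53 on the log2 scale (edgeR adjusted p = 0.00346). In serum, the mean of Id3 was 58.0 ± 1.53 CPM on soft substrates and 54.5 ± 3.29 CPM on stiff ones (± SD, n = 3 each). With PD03 it was 11.2 ± 1.22 CPM on soft substrates (n = 6) and 14.98 ± 0.50 CPM on stiff ones (n = 3). At these lower levels, Id3 was read from 139 to 385 counts per library with PD03. The summed trophectoderm markers also differed between the substrates with PD03 in serum, at means of 439 CPM for soft and 648 CPM for stiff, and their part in the result was not tested. In the only group of more than 3 libraries, soft substrates in serum + PD03, no library of any of the 8 genes stood apart by Dixon's test.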

How the results depend on the processing

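The 8 average PD03 calls kept their direction and side of the threshold under every alternative run. No paired analysis was possible because the columns carry no replicate numbers. With pool as a term, whose assignments give a lowest and a highest value, the direction of Bmp4 turned in 3 of the results in which it had been called: soft against stiff as an average reached 0.14, soft against plastic -0.15, and 48 h against 24 h on soft substrates 0.064. Counts of members called moved with the pool term to 1 from 0 for soft against stiff at 24 h, in serum, for LIF with PD03 and for stiffness by PD03 with LIF. They moved to between 0 and 2 from 1 in serum + PD03, to 0 from 2 in serum + LIF + PD03, to 0 from 3 for the stiffness average and for soft against plastic, to 0 or 1 from 2 for stiff against plastic, to 0 from 1 for LIF without PD03, to 1 from 6 for time on soft substrates and to 5 from 7 for time on stiff substrates. With no filter, counts moved to 1 for LIF without PD03 on soft and LIF with PD03 on stiff substrates, and to 2 for stiffness by PD03 with LIF. With only the groups compared, and by DESeq2, LIF with PD03 and stiffness by PD03 with LIF had 1 call each. Leaving out 1 library gave 0 to 1 calls at 24 h, 1 to 2 in serum + LIF + PD03, 1 to 4 for soft and 1 to 3 for stiff against plastic, 0 to 1 for both LIF averages and 0 to 2 for stiffness by PD03 with LIF. The cause of these changes was not tested. With 3 libraries in most groups, the precision differed between the genes. For PD03 without LIF on stiff substrates, the SEs of the 8 genes were 0.06 to 0.16 on the log2 scale. The simulation of that comparison recovered 69% of 1.5-fold changes, but it changed 200 genes where the data gave 9885 calls. Several calls of smaller differences were lost when 1 library was left out. For Id4 the counts, 41 to 239 per library, limit precision further.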
